A study of Homo sapiens with 6 samples.

Results

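The immediate early genes are the first genes that a cell transcribes after a growth factor, a depolarization or a stress, from transcription factors that are already present in the nucleus. Here they were taken as 10 genes fixed by name, namely FOS, FOSB, JUN, JUNB, JUND, EGR1, ATF3, IER2, IER3 and DUSP1, and 10 of 10 were found among the 21301 genes of the RNA-seq table and passed the filter on low counts, which kept 19694 genes. The JUN proteins form the AP-1 transcription factor with one another or with FOS proteins, and ATF3 is a related leucine zipper protein that can pair with JUN. EGR1 is a zinc finger transcription factor, IER2 and IER3 are small early response proteins, and DUSP1 is a phosphatase that switches off MAP kinases and so ends the signal that induced it. Most of these mRNAs and proteins are short-lived, and several of the proteins, JUN and ATF3 among them, are known in neurons from injury and survival signalling.

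The cells were SH-SY5Y, a line of human neuroblastoma cells, without any stimulus named in the labels. PSF, the RNA-binding protein encoded by SFPQ, was silenced with siPSF at 10 nM for 72 h in 3 libraries, and 3 libraries received siControl at the same dose and time. According to the methods a single siPSF sequence was used for the RNA-seq, so an effect of that sequence and an effect of PSF cannot be told apart. The study describes its RNA-seq libraries as biological replicates of this cell line.

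The libraries held between 101540520 and 132420931 counts. SFPQ was at 377 ± 23.1 CPM (SD, n = 3) after siControl and 189 ± 22.3 CPM (SD, n = 3) after siPSF, and the groups did not overlap. CPM are counts scaled to library size with TMM normalization factors. Of the 12 noradrenergic neuroblastoma markers, 12 were in the table and 11 had a mean of at least 1 FPKM (fragments scaled to exon length and library size). Their summed level ranged from 2040 to 2230 FPKM after siControl and from 1760 to 2180 FPKM after siPSF. TH, the enzyme that starts catecholamine synthesis, was at 0.22 FPKM after siControl. Markers of glia, fibroblasts, leukocytes and epithelium summed to at most 10.3 FPKM per list in any library, and the 4 endothelial markers were not analysed here. These sums rest on 1 of 5 glia, 5 of 5 fibroblast, 2 of 4 leukocyte and 2 of 4 epithelial markers, and the others were not analysed here.

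The promoters of these genes carry the sites through which signals reach them. Of the 10 members, 9 had a promoter in the RefSeq set (GRCh38.p14), and IER3 had none. The 250 bases before each start were searched on both strands. The letters TGACNTCA, which hold the cAMP response element TGACGTCA and its variant TGACATCA, were found in JUN, ATF3, JUND and DUSP1, against 6.87% of the 35116 promoters in the set and 7.42% of the 13167 tested genes with a promoter there, counted by gene as the members are. JUN and the upstream start of ATF3 had the variant, which was in 2.37% of promoters and 1.99% of tested genes, and JUND and DUSP1 had the palindrome, in 1.65% of promoters and 3.24% of tested genes. The CArG box, the site that serum response factor binds, was in EGR1, in 1.16% of promoters and in 1.4% of tested genes. The letters TGANTCA, a form of the AP-1 site, were in none of the 9 members, in 6.57% of promoters and in 6.13% of tested genes. Whether AP-1 binds other letters shown here, such as TGACATCA in JUN, was not examined. TATAAA was found in FOS, FOSB, JUNB and DUSP1, between bases -33 and -25 from the start. In ATF3 it lay much further off, at bases -230 to -225 from the downstream start. Anywhere in the 250 bases, it was in 10.7% of promoters and in 8.34% of tested genes. These motifs were chosen with the fold changes known, and a match of letters is not a site shown to be bound. The search covered 250 bases and fixed letters only. A member without a match can have such a site further upstream or with other letters. The following 70-base stretches are shown because they hold the matches to TGACNTCA and to the CArG box, in members that were called lower after siPSF (JUN and ATF3) and in members that were not called (JUND, DUSP1 and EGR1). They are written 5′ to 3′ on the strand of the gene, with the matched letters in capitals.
JUN (chr1:58784076-58784145, minus strand, bases -98 to -29 from the start): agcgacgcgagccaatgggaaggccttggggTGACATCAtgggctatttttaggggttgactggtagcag
ATF3 (chr1:212565253-212565322, plus strand, bases -154 to -85 from the upstream start): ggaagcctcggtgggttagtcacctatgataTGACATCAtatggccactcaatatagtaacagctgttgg
JUND (chr19:18281784-18281853, minus strand, bases -231 to -162 from the start): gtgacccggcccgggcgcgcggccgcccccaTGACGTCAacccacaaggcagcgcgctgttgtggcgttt
DUSP1 (chr5:172771282-172771351, minus strand, bases -156 to -87 from the start): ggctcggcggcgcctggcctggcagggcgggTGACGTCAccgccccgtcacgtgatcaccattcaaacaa
EGR1 (chr5:138465355-138465424, plus strand, bases -124 to -55 from the start, with 2 CArG boxes): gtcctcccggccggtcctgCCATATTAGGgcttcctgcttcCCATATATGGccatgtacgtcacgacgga

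Most of the members are short genes with few introns. Of the 10 members, 9 span less than 10 kb, from 1349 bases in IER3 to 7184 bases in FOSB, and ATF3 spans 55371 bases. JUN, JUNB and JUND have 0 introns, as do 2.65% of the 14016 tested genes with an annotated 3′ UTR (GENCODE, MANE Select transcripts), and the others have 1 to 3, against a median of 8. The pentamer ATTTA, the core of the AU-rich elements that shorten the life of an mRNA, occurred at least once in the 3′ UTR of 9 of 10 members and in 71.8% of the tested genes. It was densest in IER3 (8.14 per kb), FOS (6.20 per kb) and DUSP1 (6.01 per kb), against a median of 1.63 per kb. Its density was above that median in 6 of 10 members. The density was below the median in FOSB (1.38 per kb), JUND (1.34 per kb) and EGR1 (0.82 per kb), and the pentamer was not found in IER2. The longer form TTATTTAWW, with W for A or T, was in 2 of 10 members and in 21.2% of the tested genes.

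Levels per exon length were compared with the deposited FPKM. After siControl JUND stood highest at 57.7 ± 3.72 FPKM, above 94.6% of all genes in the table. ATF3, which many cell types hardly express without stress, followed at 48.1 ± 3.42 FPKM. JUNB was at 35.7 ± 1.57 FPKM and IER2 at 34.1 ± 1.22 FPKM, and their ranges overlapped, so that their order was not set beyond the spread between libraries. JUN was at 24.7 ± 4.86 FPKM (SD, n = 3 for each). These 5 genes made up the upper group. DUSP1 was at 9.13 ± 0.0778 FPKM and EGR1 at 8.08 ± 1.17 FPKM. IER3 was at 1.25 ± 0.210 FPKM and FOS at 1.20 ± 0.215 FPKM, with overlapping ranges. FOSB was lowest at 0.0495 ± 0.0138 FPKM (SD, n = 3 for each), above 8.4% of all genes. After siPSF JUND was still first and FOSB last, while IER2, at 34.9 ± 0.670 FPKM, ATF3, at 34.1 ± 3.92 FPKM, and JUNB, at 32.6 ± 3.42 FPKM (SD, n = 3 for each), had overlapping ranges, so that their order was not set. The sum of JUN, JUNB and JUND was 96.9 ± 21.0 times the sum of FOS and FOSB in FPKM after siControl and 92.7 ± 16.7 times after siPSF (SD, n = 3 for each), with overlapping libraries. This ratio leaves out the FOS relatives FOSL2 and FOSL1, which are not members. After siControl they were at 10.8 and 4.61 CPM and FOS at 2.71 CPM, a measure not scaled to exon length. After siPSF they were at 11.3 and 8.20 CPM, with overlapping groups, and neither was called. FOSL1 was at 5.46, 4.86 and 3.52 CPM in siControl replicates 1 to 3 and at 9.21, 11.5 and 3.88 CPM in siPSF replicates 1 to 3. Its log2 fold change was 0.83 (95% interval 0.17 to 1.49, edgeR adjusted p = 0.0855), and it was called in 1 of the 6 fits that left out 1 library.

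**Figure D1:**
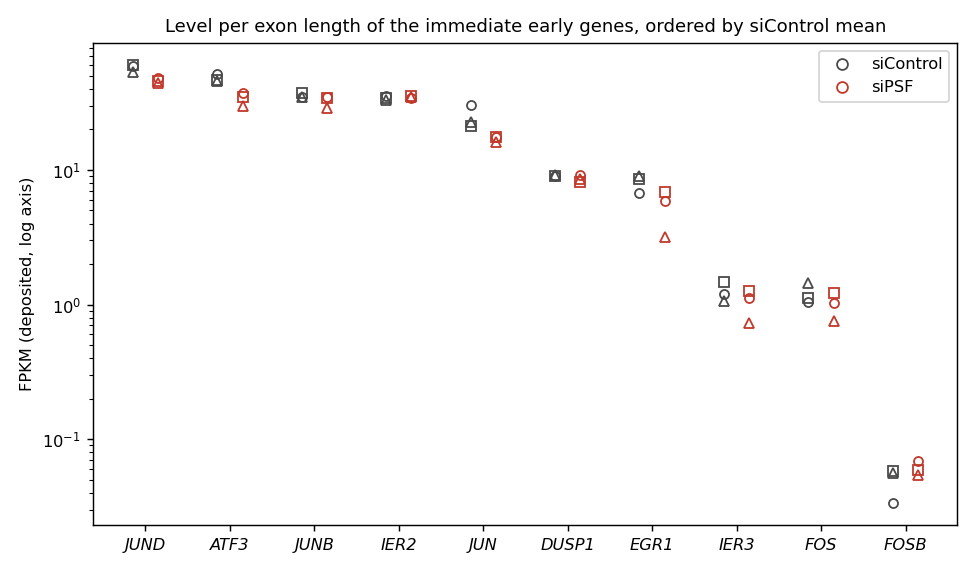
FPKM of each immediate early gene (log axis) in the 3 siControl libraries (grey) and the 3 siPSF libraries (red), with replicates 1, 2 and 3 as circle, square and triangle. JUND, ATF3, JUNB, IER2 and JUN sit between 16.0 and 60.6 FPKM, and FOSB sits between 0.0336 and 0.0693 FPKM.

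After siPSF, 2 of the 10 members were called lower and 0 were called higher. ATF3 stood at 72.6% and JUN at 72.8% of the siControl level. Calls were made at an adjusted p under 0.05 from edgeR's quasi-likelihood test, adjusted by Benjamini-Hochberg over all 19694 genes. Over all genes tested, 8.27% were called lower and 6.65% higher, and the count of 2 of 10 members stands beside these shares. Without adjustment, 4 members had a p under 0.05 (JUN, JUND, EGR1 and ATF3), against 29.8% of all genes. The members' median log2 fold change was -0.19, and that of all genes tested was 0.01. Without siPSF replicate 3 the members' median was -0.01. Among the 3056 protein-coding genes under 10 kb the median was 0.08, with 2.98% called lower and 9.91% called higher. The 9 members of that length had a median of -0.18 with 1 called lower. ATF3 is longer. Among the 8590 protein-coding genes of 10 to 100 kb the median was 0.03, with 5.24% called lower and 6.9% called higher.

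JUN (gene ID 3725, chromosome 1 of GRCh38, 58780791 to 58784047) encodes the AP-1 subunit that JNK kinases phosphorylate. Its level was 107, 75.0 and 77.0 CPM in siControl replicates 1 to 3 and 63.9, 65.0 and 59.5 CPM in siPSF replicates 1 to 3. The siPSF values were all lower than the lowest siControl value, and siControl replicate 1 stood well above the other siControl libraries. Its log2 fold change was -0.46 (standard error 0.12, 95% interval -0.73 to -0.19, edgeR adjusted p = 0.028). Without siControl replicate 1 it was -0.28 with an adjusted p of 0.087, and without siPSF replicate 1 it was -0.47 with an adjusted p of 0.059, so the call was lost in both fits. It was made in the other 4 fits that left out 1 library. In the 6 such fits the share of all genes called lower was 7.22%, 4.66% and 5.14% without siControl replicates 1, 2 and 3, and 5.67%, 6.56% and 8.73% without siPSF replicates 1, 2 and 3. That share was 8.33% with the replicate block, 8.37% with DESeq2 size factors, 6.91% without the filter on low counts and 10.7% with the DESeq2 Wald test. With limma it was 11.5% on log2(FPKM + 0.5), 10.4% on log2(FPKM + 0.1) and 20.7% on rescaled FPKM.

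JUND (gene ID 3727, chromosome 19, 18279694 to 18281622) encodes the JUN protein that is made steadily and is least dependent on a stimulus. It was at 124, 127 and 108 CPM after siControl and at 104, 101 and 97.7 CPM after siPSF. The groups did not overlap, although the lowest siControl library stood close to the highest siPSF library. The log2 fold change was -0.24 (standard error 0.09, 95% interval -0.43 to -0.05) and was not called (edgeR adjusted p = 0.081). It was called without siControl replicate 3 (adjusted p = 0.031), with limma on log2(FPKM + 0.5) (adjusted p = 0.040) and with limma after rescaling FPKM (adjusted p = 0.011).

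JUNB (gene ID 3726, chromosome 19, 12791486 to 12793315), whose protein is a weaker activator than JUN at many AP-1 sites, was at 69.1, 74.9 and 66.7 CPM after siControl and at 71.4, 71.7 and 59.9 CPM after siPSF. The groups overlapped, and only siPSF replicate 3 lay below all siControl libraries. Its log2 fold change was -0.05 (95% interval -0.26 to 0.15, edgeR adjusted p = 0.75). HOOK2 overlaps it on the opposite strand at 32.2 CPM after siControl, and whether strand was used in counting is not stated. Within the JUN family, JUND made up 48.9 ± 1.71% of the summed FPKM after siControl and 48.3 ± 1.41% after siPSF. JUN went from 20.8 ± 3.35% to 17.8 ± 0.299% and JUNB from 30.3 ± 1.98% to 34.0 ± 1.55% (SD, n = 3 for each). In JUNB's share the siPSF libraries, from 32.2% to 35.1%, lay above the siControl libraries, from 28.0% to 31.5%, whereas the shares of JUN and JUND overlapped between groups. The summed FPKM of the 3 genes was 124, 119 and 111 after siControl and 101, 98.1 and 89.1 after siPSF, without overlap.

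FOS (gene ID 2353, chromosome 14, 75278828 to 75282230) encodes the partner of JUN that is most strongly induced in active neurons. It was at 2.39, 2.56 and 3.18 CPM after siControl, from 291 to 401 counts, and at 2.43, 2.93 and 1.82 CPM after siPSF. The highest value was in a siControl library and the lowest in a siPSF library, and the ranges overlapped. Its log2 fold change was -0.18 with a wide 95% interval from -0.61 to 0.25 (edgeR adjusted p = 0.59). FOSB (gene ID 2354, chromosome 19, 45467996 to 45475179), its paralog, rested on 17 to 36 counts per library. It was at 0.1397, 0.247 and 0.222 CPM after siControl and at 0.303, 0.265 and 0.233 CPM after siPSF. The exact Poisson 95% interval of its lowest count, 17 in siControl replicate 1, ran from 9.9 to 27.2 counts, for counting error alone. The log2 fold change was 0.39 (95% interval -0.34 to 1.13, edgeR adjusted p = 0.47), which covers levels from 79.1% to 219% of siControl. ERCC1, a DNA repair gene at 102 CPM after siControl, overlaps FOSB on the opposite strand, and reads of the pair cannot be told apart without strand.

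**Figure D2:**
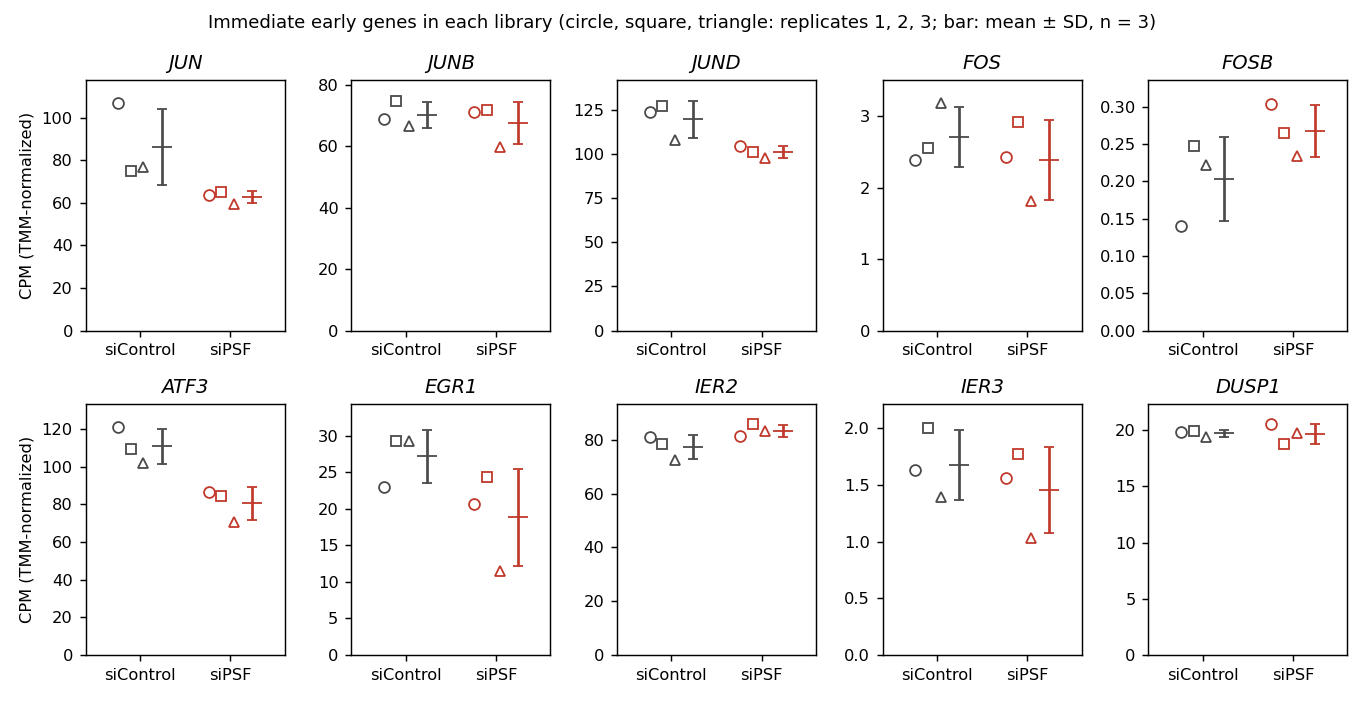
TMM-normalized CPM of each immediate early gene in every library (circle, square and triangle for replicates 1, 2 and 3; bar for the mean ± SD, n = 3), on linear axes from 0. In JUN, JUND and ATF3 every siPSF library lies below every siControl library, in IER2 every siPSF library lies above, and in the other 6 genes the groups overlap.

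ATF3 (gene ID 467, chromosome 1, 212565407 to 212620777) encodes a stress-induced leucine zipper protein that mostly represses transcription and marks injured neurons. It was at 121, 109 and 102 CPM after siControl and at 86.4, 84.5 and 70.4 CPM after siPSF. All siPSF libraries lay below all siControl libraries, and siPSF replicate 3 was the lowest. Its log2 fold change was -0.46 (standard error 0.10, 95% interval -0.68 to -0.24, edgeR adjusted p = 0.0093). The fits that each left out 1 library gave from -0.52 to -0.37, and ATF3 was called in 6 of 6 of them. It ranked 1177 of 19694 genes by p. The table gives 1 count for the gene, so its starts were not separated.

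Groups did not overlap in 3 members that were lower (JUN, JUND and ATF3) and in 1 that was higher (IER2), against 17.7% and 16.7% of all genes tested, or 34.4% in either direction. IER2 (gene ID 9592, chromosome 19, 13150411 to 13154911), a nuclear early response protein, was at 81.0, 78.5 and 72.6 CPM after siControl and at 81.3, 85.8 and 83.3 CPM after siPSF. Its groups were parted by a gap far smaller than the spread within either of them. The log2 fold change was 0.11 (95% interval -0.06 to 0.28, edgeR adjusted p = 0.39), and limma gave -0.08 once FPKM had been scaled to a common sum, so no direction was given to IER2.

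EGR1 (gene ID 1958, chromosome 5, 138465479 to 138469303), which links serum response factor to later targets in growth and plasticity, had the lowest fold change of the members but a wide spread. It was at 23.0, 29.2 and 29.3 CPM after siControl and at 20.7, 24.3 and 11.4 CPM after siPSF. The groups overlapped, and siPSF replicate 3 stood far below the other siPSF libraries. Its log2 fold change was -0.53 (standard error 0.21, 95% interval -0.99 to -0.07) and was not called (edgeR adjusted p = 0.12). Leaving out siPSF replicate 3 brought it to -0.27, and leaving out siPSF replicate 2 brought it to -0.76 with an adjusted p of 0.026.

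IER3 (gene ID 8870, chromosome 6, 30743199 to 30744547), an early gene linked to cell survival, was at 1.63, 2.001 and 1.39 CPM after siControl and at 1.56, 1.77 and 1.03 CPM after siPSF. Its groups overlapped, and its log2 fold change was -0.20 (95% interval -0.70 to 0.30, edgeR adjusted p = 0.61). IER3-AS1, a lncRNA gene on the opposite strand, was at 1.07 CPM after siControl. DUSP1 (gene ID 1843, chromosome 5, 172768096 to 172771195) was at 19.8, 19.9 and 19.4 CPM after siControl and at 20.6, 18.8 and 19.7 CPM after siPSF. The siControl libraries lay within the range of the siPSF libraries, and the log2 fold change was -0.0015 (95% interval -0.20 to 0.20, edgeR adjusted p = 0.99). That interval leaves DUSP1 between 86.8% and 115% of the siControl level, and excludes a change of the size fitted for ATF3 and JUN.

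**Figure D3:**
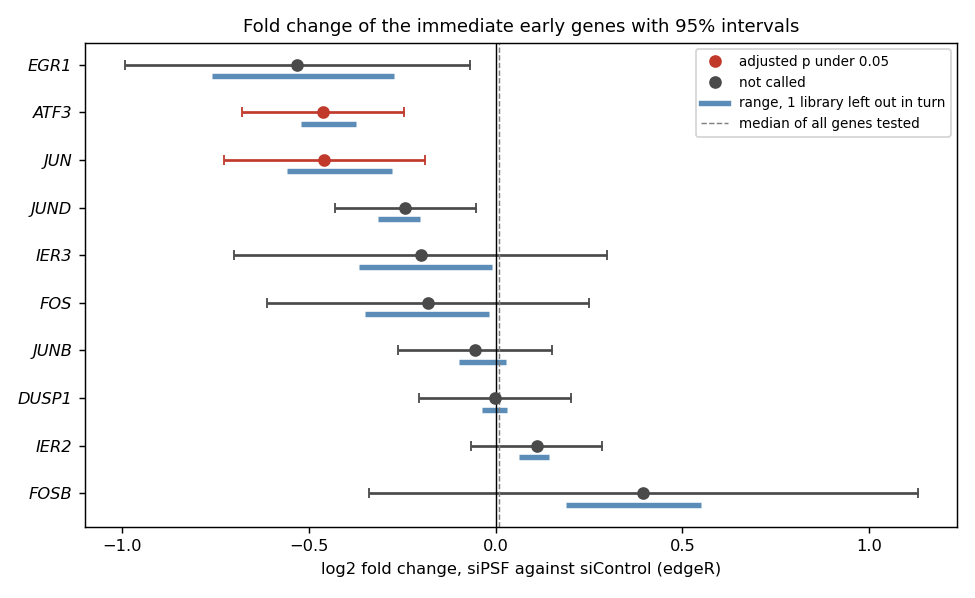
Log2 fold change of each member, siPSF against siControl, with its 95% interval (edgeR), red where the adjusted p is under 0.05, and in blue the range when 1 library at a time is left out. ATF3 and JUN, both at -0.46, are called, EGR1 at -0.53 has a wider interval, and the dashed line marks the median of all genes at 0.01.

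Within the siPSF group most of the members moved with the library. In siPSF replicate 3, 8 of the 10 members had their lowest value of the group and 0 their highest, and 39.0% of all genes of a mean of at least 1 CPM were lowest there. In siControl replicate 3, 6 of the 10 members were lowest of their group and 2 highest, with 39.1% of those genes lowest. The median member lay 0.10 below the siControl mean in siPSF replicate 1, 0.02 below it in replicate 2 and 0.38 below it in replicate 3 on the log2 scale. IER2 and DUSP1 stayed at their siPSF mean in replicate 3, with deviations of -0.002 and 0.0021. SFPQ was also lowest in siPSF replicate 3, at 165 CPM against 209 and 193 CPM in replicates 1 and 2, and a link was not tested. Deviations from the group means were most alike in JUNB and IER3 (Pearson r = 0.98) and in FOS and EGR1 (r = 0.90). These are descriptions over 6 libraries, and the genes of a pair share library and depth.

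Over all 6 libraries, the genes whose log2 CPM followed ATF3 most closely were ARHGEF2 (Pearson r = 0.9973), PRKG1 (r = 0.9971) and CLUHP3 (r = 0.9969), among 14670 genes compared. Group means were not removed here, so a shared difference between siPSF and siControl adds to these r. ARHGEF2 encodes a guanine nucleotide exchange factor and fell by 0.50 on the log2 scale (edgeR adjusted p = 0.011). PRKG1 encodes a cGMP-dependent protein kinase and fell by 1.40 (edgeR adjusted p = 0.0031). CLUHP3 is a pseudogene and was not called (-0.35, edgeR adjusted p = 0.073). For ATF3, 242 genes had an r above 0.95. The genes nearest to JUN were the pseudogene STAG3L4 (r = 0.99), L3MBTL4 (r = 0.98), a histone-binding protein gene, and CALCB (r = 0.98), a neuropeptide gene, and 28 genes had an r above 0.95.

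To set the members beside the rest of the response, 8 further lists of 136 genes were used, of which 130 were tested. In them 16 genes were called lower (12.3%) and 7 higher (5.38%), against 8.27% and 6.65% of all genes tested. The share called lower differed with gene length. It was 25.1% for protein-coding genes of 100 kb or more, 5.24% from 10 to 100 kb and 2.98% under 10 kb. The lists were not matched to all genes by length, so their shares are not set against a like background. The members and 9 lists are plotted by fold change, with unlabelled points for the genes, and the ninth list holds stress-response markers.

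Among the other partners of AP-1, 2 of 10 tested genes were called lower and 0 higher, with a median log2 fold change of 0.03. MAFF, a small MAF protein, fell from 7.27 ± 0.578 to 4.94 ± 0.258 CPM (SD, n = 3, as for all list genes, log2 fold change -0.56, edgeR adjusted p = 0.011). ATF7, a relative of ATF2 that pairs with JUN, fell from 66.9 ± 6.60 to 52.1 ± 3.39 CPM (-0.36, edgeR adjusted p = 0.026). Not called were MAFG at -0.07 and JDP2, a repressor of JUN, at 0.11. MAFF was called in 5 and ATF7 in 3 of the 6 fits without 1 library. BATF was not analysed here.

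The other immediate early transcription factors did not share a direction. Of 16 tested genes 2 were called lower and 2 higher, and their median was 0.12. KLF2, a zinc finger factor, rose from 0.338 ± 0.116 to 1.99 ± 0.313 CPM (log2 fold change 2.56, edgeR adjusted p = 1.3e-04). ID2, an inhibitor of differentiation factors, rose from 110.0 ± 24.1 to 183 ± 33.5 CPM (0.74, edgeR adjusted p = 0.0081). EGR3, a paralog of EGR1, fell from 0.451 ± 0.0612 to 0.155 ± 0.0860 CPM (-1.55, edgeR adjusted p = 0.020). NR4A3, an orphan nuclear receptor, fell from 2.84 ± 0.482 to 1.65 ± 0.502 CPM (-0.78, edgeR adjusted p = 0.035). In the 6 fits without 1 library KLF2 was called in 6, ID2 in 5, EGR3 in 3 and NR4A3 in 2. With limma on rescaled FPKM the call of ID2 was lost (0.55, adjusted p = 0.069), and KLF2, EGR3 and NR4A3 were not fitted there. ID3 and ID1, the most abundant of those not called, had 0.28 and 0.18. EGR4, NR4A2 and KLF4 were not analysed here.

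Of the 20 early effector genes tested, 1 was called lower and 1 higher, with a median of 0.07. RHOB, an early-induced small GTPase, rose from 106 ± 7.01 to 168 ± 22.4 CPM (log2 fold change 0.67, edgeR adjusted p = 0.0012). SGK1, a kinase of ion transport and survival, fell from 90.8 ± 4.39 to 60.4 ± 15.4 CPM (-0.59, edgeR adjusted p = 0.021). The survival gene MCL1 had 0.05 and the histone demethylase gene KDM6B had -0.10, and neither was called. In the neuronal activity-dependent genes 2 of 12 were called lower and 1 higher, with a median of -0.02. INHBA, an activin subunit, fell from 10.52 ± 2.14 to 2.45 ± 0.454 CPM (-2.10, edgeR adjusted p = 4.5e-05). VGF, a secreted neuropeptide precursor, fell from 1159 ± 145 to 819 ± 117 CPM (-0.50, edgeR adjusted p = 0.017). NRN1, a neurite growth factor, rose from 7.80 ± 0.431 to 10.6 ± 1.083 CPM (0.44, edgeR adjusted p = 0.030). SCG2 at -0.10 and RHEB at 0.09 were not called. Without 1 library, RHOB and INHBA were called in 6 of 6 fits, SGK1 and VGF in 4 and NRN1 in 3.

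The feedback inhibitors of the MAP kinases, to which DUSP1 belongs by function, had the lowest median of the lists at -0.23, and 13 of 15 lay below 0, against 9539 of the 19694 genes tested, with 3 called lower and 1 higher. SPRY2, which blocks receptor signals to RAS, fell from 111 ± 14.4 to 56.6 ± 2.79 CPM (log2 fold change -0.97, edgeR adjusted p = 1.2e-04). DUSP6, the cytoplasmic phosphatase of ERK, fell from 58.6 ± 6.54 to 40.9 ± 4.92 CPM (-0.52, edgeR adjusted p = 0.0093). DUSP5, a nuclear phosphatase of ERK, fell from 2.47 ± 0.442 to 1.40 ± 0.345 CPM (-0.82, edgeR adjusted p = 0.027). DUSP2 rose from 3.93 ± 0.167 to 5.95 ± 0.388 CPM (0.60, edgeR adjusted p = 0.0089). SPRY2, DUSP6 and DUSP2 were called in 6 of 6 fits without 1 library and DUSP5 in 3. DUSP4 at 0.27 and SPRED2 at -0.10 were not called.

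In the RAS-MAP kinase cascade that leads to these genes, 2 of 29 were called lower and 2 higher, with a median of -0.09. MAP2K6 and MAP2K3, the kinases that activate p38, rose by 0.94 and 0.51 on the log2 scale (edgeR adjusted p = 0.0062 and 0.023). MAPK10, the neuronal JNK, had -0.47 (edgeR adjusted p = 0.044), and MAPK11, a p38 kinase, had -0.28 (edgeR adjusted p = 0.045). The abundant RPS6KA2 and MAP2K2, at -0.17 and 0.29, were not called. Of the 17 SRF, CREB and MEF2 factors and cofactors 3 were called lower and 0 higher, with a median of -0.13. The acetyltransferase genes CREBBP and EP300, coactivators at cAMP response elements, had -0.40 and -0.37 (edgeR adjusted p = 0.0056 and 0.028), and MRTFB, a cofactor of SRF, had -0.36 (edgeR adjusted p = 0.041). CRTC2 at 0.14 and MEF2D at 0.01 were not called. Of 11 AU-rich element binding proteins, 1 was called lower, the neuronal stabilizer ELAVL4 (-0.46, edgeR adjusted p = 0.019), and KHSRP at -0.10 and HNRNPD at 0.17 were not called. Of these genes MAP2K6 and CREBBP were called in 6 of 6 fits without 1 library, ELAVL4 in 4, MAP2K3 in 3, EP300, MRTFB and MAPK10 in 2 and MAPK11 in 1. With limma on rescaled FPKM the calls of MAP2K6 (0.38, adjusted p = 0.072), MAP2K3 (0.26, adjusted p = 0.094) and MRTFB (-0.27, adjusted p = 0.14) were lost.

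Of the 12 stress-response markers, 0 were called lower and 3 higher, and the median was 0.22. HSPA1B and HSPA1A, the inducible HSP70 genes, rose by 0.65 and 0.63 on the log2 scale (edgeR adjusted p = 0.0036 and 0.0043), and the pair can share reads. ATF4, the factor of the integrated stress response that is known to induce ATF3, rose from 430 ± 22.7 to 523 ± 10.7 CPM (0.28, edgeR adjusted p = 0.036), and it was called in 0 of the 6 fits without 1 library and not with limma on rescaled FPKM (0.29, adjusted p = 0.093). ASNS at 0.08 and CDKN1A at 0.38 were not called. The part of these markers in the levels of the members was not tested.

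**Figure D4:**
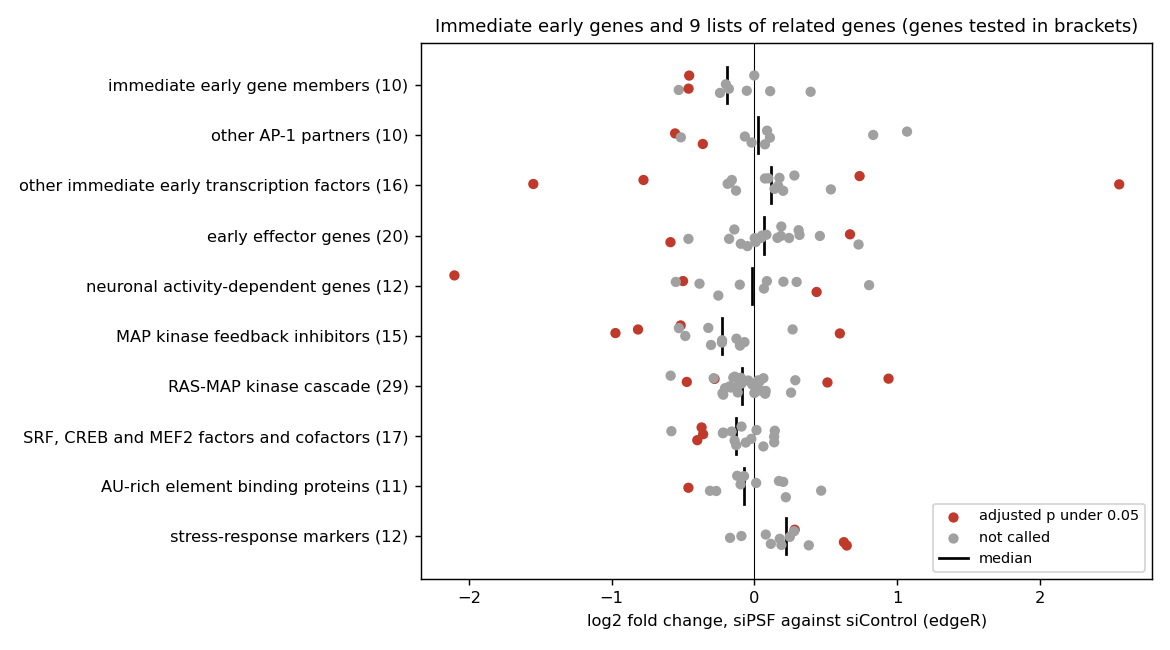
Log2 fold change, siPSF against siControl, of the immediate early genes and of 9 lists of related genes, with 1 point per tested gene, red where the adjusted p is under 0.05 and black bars for medians. The members and the feedback inhibitors have medians of -0.19 and -0.23, and the stress-response markers have a median of 0.22.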

How the data were processed

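RNA-seq counts of 3 siControl and 3 siPSF libraries of SH-SY5Y cells were analysed. The authors deposited raw read counts per RefSeq gene and FPKM values, which the methods call RPKM and which the authors made by dividing by exon length and mapped reads. The methods name poly(A) selection, 50 bp paired-end reads, Bowtie 2 to remove rRNA and TopHat on hg38, whereas the submitters' processing notes name Trimmomatic, HISAT2 2.1.0 and StringTie 2.1.3b on GRCh38. Which of these made the table is not settled, nor whether strand was used. The smallest count is 1, so genes without a read in some library were not analysed here. FPKM of ATF3 and FOSB departed from a constant ratio to the counts by up to 3% between libraries. In ATF3 the departure parted the groups, from 0.62% to 1.69% in siControl and from -3.0% to -0.25% in siPSF libraries.

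Genes were filtered with filterByExpr, normalized by TMM and tested with edgeR 4.0.16 (glmQLFit and glmQLFTest, R 4.3.3) without a block, and adjusted by Benjamini-Hochberg over 19694 genes. The common coefficient of variation was 12.6%. The alternatives were each library left out, a replicate block, DESeq2 1.42.0 (size factors and Wald test), no filter, and limma 3.58.1 on log2(FPKM + 0.5), on log2(FPKM + 0.1) and on FPKM rescaled to the same sum, for genes of a mean of at least 0.5 FPKM. Intervals are 95% intervals of the fit. Poisson intervals cover counting error only.

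The members, lists, tests and alternatives were chosen with earlier results of these data known, and the promoter motifs after the fold changes were seen. All members are named, and in each list up to 4 called genes of smallest p and up to 2 uncalled genes of highest CPM. For each called member the 3 genes nearest in log2(CPM + 0.5) are named. Positions came from RefSeq genes of GRCh38.p14, which matched 97.7% of the gene IDs, promoters from RefSeq and transcript structures from GENCODE. The groups follow the sample titles, and 0 columns of libraries were left unused.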

Additional observations from a re-analysis of the deposited data

How the results depend on the processing

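ATF3 was called lower under all 13 alternatives (log2 fold change from -0.61 to -0.37) and JUN under 11 of 13 (from -0.62 to -0.28). The number of members called lower was 1 to 3 with 1 library left out, and 0 were called higher under any alternative. It was 1 without siControl replicate 1 and without siPSF replicate 1, where JUN was lost. JUND was called under 3 alternatives and EGR1 under 1. With 1 library left out, DUSP1 ranged from -0.0352 to 0.031 and was above 0 without siControl replicate 1 (0.0021) and without siPSF replicate 2 (0.031). JUNB ranged from -0.0979 to 0.0272 and was above 0 without siPSF replicate 3. IER2 was -0.0804 with limma on rescaled FPKM. None of them was called there. The number of genes called over the whole table ranged from 1500 to 3140 with 1 library left out, being 1500 without siControl replicate 2 and 1754 without siControl replicate 3, against 2938. Of the called genes 55.4% were lower, but 70.3% with limma on FPKM and 87.7% after rescaling FPKM, where the median of all genes moved to -0.16 and that of the 9 members fitted was -0.28. With the replicate number as a block, 3029 genes and the same 2 members were called (JUN adjusted p = 0.029, ATF3 adjusted p = 0.0059). Same-numbered libraries did not all deviate together (r = -0.02, 0.27 and 0.11), so the numbers were not taken as pairs, and not every library was most like its own number. FOSB could not be fitted by limma on FPKM at the minimum of 0.5 FPKM. FOSB had the fewest reads of the members, 17 to 36 counts per library.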
